A study of Mus musculus with 6 samples.

Results

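The genes described here are those of the vascular endothelial growth factor (VEGF) ligand Vegfa, of receptors and junction proteins of the vessel lining, and of the mural cells that wrap small vessels. They were chosen by name, with earlier results of these data known: Vegfa, Flt1, Kdr, Tek, Cldn5, Pecam1, Pdgfb, Pdgfrb, Vtn and Abcc9. All 10 had a probe set that maps to a single gene, 1 probe set each, among 19938 genes measured. The tissue was adult forebrain cortex, taken from C57BL/6 mice, with 1 Affymetrix whole-transcript array per sample and 200 ng of total RNA each. The 3 samples labelled Dicer KO have the genotype CamKII-Cre/+;Dicer flox/flox, in which Cre is driven in excitatory forebrain neurons and both alleles of Dicer, the enzyme that cuts microRNA precursors, carry loxP sites. The 3 littermate controls are either CamKII-Cre/+;Dicer flox/+ or lack Cre and are Dicer flox/flox; which control has which genotype was not given in the labels, so a control may carry Cre and a deleted allele. Every animal of both groups thus carries at least 1 floxed Dicer allele. The labels give no age beyond adult, and they call the arrays of a group biological replicates. The cells that express most of the 10 genes are not the cells in which the driver acts.

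Vegfa is secreted by astrocytes, neurons and other cells of the brain and is induced by low oxygen. It binds Kdr and Flt1 on endothelial cells, and angiopoietins bind Tek on the same cells. Endothelial cells secrete Pdgfb, which recruits pericytes through their receptor Pdgfrb, and both cell types share a basement membrane and maintain the blood-brain barrier. In whole tissue, fewer cells of a type and less RNA per cell cannot be told apart.

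Median log2 values per array ran from 7.13 to 7.22. Dicer1 read higher in the arrays labelled Dicer KO, with log2 values of 9.58, 9.68 and 9.46 against 9.17, 9.21 and 9.18 in the controls, so it does not check the deletion, and the groups are named by their labels. By a Y-linked transcript, 2 of the 3 labelled KO arrays and 1 of the 3 controls read as male. Arrays stood apart in both groups. Over 12 genes typical of olfactory bulb, control array 1 averaged 0.78 above the control mean, while the other 5 arrays lay between -0.45 and -0.33. Labelled KO array 3 had the highest mean of 12 astrocyte markers (0.46, against -0.069 to 0.098 in the other 5) and of 11 microglia markers (0.57, against -0.41 to 0.17). Results for Vegfa, Pdgfrb and Vtn are therefore given with and without these arrays.

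None of the 10 genes passed an adjusted p of 0.05 over all genes (limma with Benjamini-Hochberg adjustment), where 0.281% of all genes did. At an unadjusted p under 0.05 there were 4 of the 10, Vegfa lower and Pecam1, Pdgfrb and Vtn higher in the arrays labelled Dicer KO, against 14.4% of all genes (7.01% higher and 7.39% lower). In 4 of the 10 the groups did not overlap, Vegfa lower and Pdgfb, Pdgfrb and Vtn higher, against 20.3% of all genes (9.30% higher, and 2201 of 19938 genes lower). Because the 10 genes were chosen with earlier results of these data known, neither count is a test of them as a set. The median log2 difference of the 10 genes was 0.11, that of all genes -0.0092, and 7 of the 10 differences were above 0. Without labelled KO array 3 the median of the 10 was 0.049. Single genes were given no exact permutation p, since 0.1 is the smallest that 3 against 3 arrays allow in a two-sided test.

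**Figure D1:**
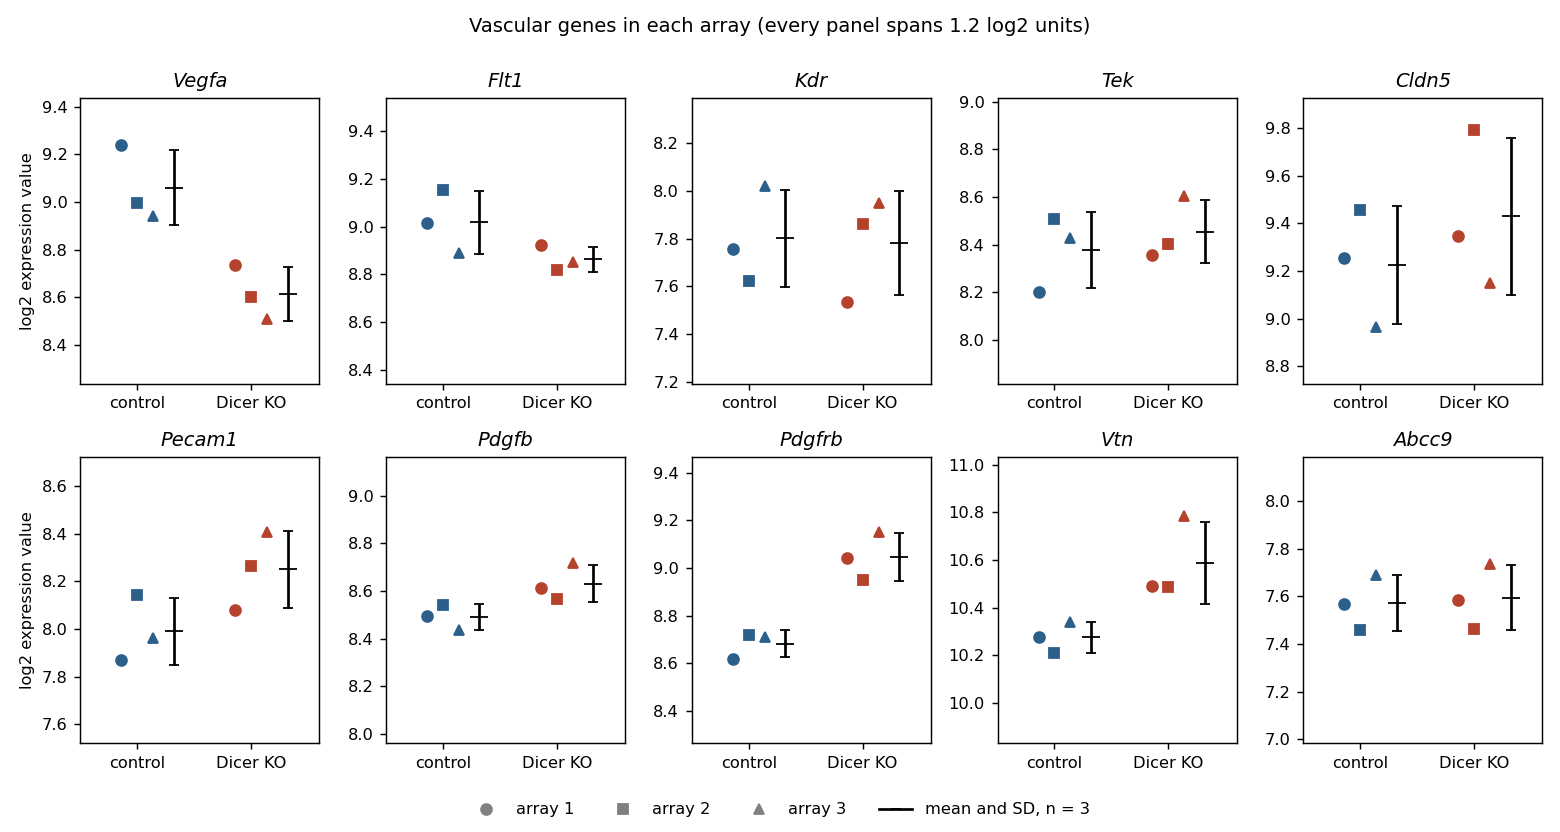
Log2 expression value (vertical axis) of the 10 vascular genes in each of the 3 control (blue) and 3 labelled Dicer KO (red) arrays. Marker shapes are array numbers, by which the labels give no pairing, and bars are the mean and SD (n = 3). Vegfa lies between 8.51 and 8.74 in the red group and between 8.94 and 9.24 in the blue group, Pdgfrb and Vtn show the opposite order without overlap, and Kdr, Tek and Abcc9 are mixed.

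Vegfa, the main ligand that drives growth and permeability of vessels, read lower in every labelled KO array than in any control. Its log2 values were 8.74, 8.60 and 8.51 in the arrays labelled Dicer KO and 9.24, 8.996 and 8.94 in the controls. The nearest arrays of the groups were 0.21 apart, more than the SD of either group, and the highest value was that of control array 1. The means were 8.62 ± 0.11 and 9.06 ± 0.16 (SD, n = 3 each), a log2 difference of -0.44 ± 0.11 (SE; 95% interval -0.69 to -0.20), 1.36-fold lower. This did not pass over all genes (limma adjusted p = 0.120). Without control array 1 the difference was -0.35 (limma adjusted p = 0.319) and without labelled KO array 3 it was -0.39. With arrays weighted by their quality it was -0.37 and passed (limma adjusted p = 0.0441), in a fit that called 1116 genes. Excitatory neurons and astrocytes also express Vegfa. Of 11 measured excitatory neuron markers, 7 were below 0, and their mean log2 levels lay between -0.12 and -0.11 of the control mean in the labelled KO arrays and between -0.057 and 0.037 in the controls. Nrgn, the synaptic protein neurogranin, was at -0.60 ± 0.088 (SE; limma adjusted p = 0.0413), the 1 call in that list. The call was kept without labelled KO array 3 and lost when any 1 of the other 5 arrays was left out (limma adjusted p between 0.0834 and 0.188), with every row tested (limma adjusted p = 0.240) and with sex as a covariate (limma adjusted p = 0.146). The part of these levels in the Vegfa difference was not tested.

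Vegfa is a reported target of the miR-15 family of microRNAs, which Dicer matures, and the sequences are shown for that link; miR-126a-3p, which is abundant in endothelial cells and lies in an intron of Egfl7, is shown beside them. In the mature sequences below, from RefSeq (GRCm38.p6), capitals mark the seed, bases 2 to 8, which pairs with targets.
mmu-miR-15a-5p: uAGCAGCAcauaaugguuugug
mmu-miR-15b-5p: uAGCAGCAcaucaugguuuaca
mmu-miR-16-5p: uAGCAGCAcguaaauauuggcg
mmu-miR-195a-5p: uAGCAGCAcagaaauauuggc
mmu-miR-497a-5p: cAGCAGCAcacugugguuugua
mmu-miR-126a-3p: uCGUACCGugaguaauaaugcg
The first 5 share 1 seed and miR-126a-3p has another. Mature microRNAs were not measured; the arrays hold probe sets for precursor genes. Of the 6 precursor genes of the miR-15 family sequences, 4 were above 0 and 2 below, and none passed over all genes. Mir15a read 8.26, 8.51 and 8.10 in the labelled KO arrays and 8.13, 8.26 and 8.03 in the controls, with overlapping groups. Mir15b was at 0.65 ± 0.28 (SE; limma adjusted p = 0.345), from dim values of 5.08, 5.30 and 4.06 against 4.29, 4.34 and 3.87, where labelled KO array 3 lay within the range of the controls. Mir126a was dim in all arrays, between 3.66 and 3.80, with a difference of 0.047 ± 0.081 (SE).

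The 250 bases before the start of Vegfa are shown because it read lowest against its controls. They lie at chr17:46032378-46032627 (GRCm38.p6, minus strand, RefSeq), before the upstream of 2 listed starts, and capitals mark the GC box GGGCGG, a site that zinc finger factors of the Sp family bind.
Vegfa promoter: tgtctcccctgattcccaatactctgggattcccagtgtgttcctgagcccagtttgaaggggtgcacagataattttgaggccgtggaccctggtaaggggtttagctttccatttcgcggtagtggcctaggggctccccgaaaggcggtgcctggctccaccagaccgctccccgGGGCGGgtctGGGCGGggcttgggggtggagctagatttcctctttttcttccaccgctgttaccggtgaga
The window holds GGGCGG at -72 and -62 from the start. The motif was searched on both strands and is in 32.7% of 32851 promoter windows of the same length. Windows were used for 7 of the 10 genes. None was listed for Pdgfb and Pecam1, and among the 10 genes windows on the chromosome of Pdgfrb were left out before the search. The shares over all windows were counted without that step. Of the 7, 5 hold GGGCGG (Vegfa, Flt1, Kdr, Cldn5 and Abcc9) and the windows of Tek and Vtn do not. The cores that hypoxia-inducible factors bind, ACGTG and GCGTG, are in 16.6% and 28.2% of all windows and are not in this window of Vegfa. GCGTG is in the windows of Kdr (-131 and -89), Flt1 (-184) and Vtn (-48). A match is a description of letters and not a binding site, and bases outside the 250 of each window were not searched.

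Neither signalling receptor of Vegfa passed the test, and both intervals included 0. Flt1, which binds Vegfa tightly and also exists as a soluble decoy, read 8.92, 8.82 and 8.85 in the labelled KO arrays and 9.02, 9.15 and 8.89 in the controls. Labelled KO array 1 lay above control array 3, so the groups overlapped. The log2 difference was -0.16 ± 0.094 (SE; 95% interval -0.37 to 0.058; limma adjusted p = 0.506). Kdr, the main signalling receptor, read 7.53, 7.86 and 7.95 against 7.76, 7.62 and 8.02, with both groups spread over the same range. Its difference of -0.019 ± 0.14 (SE; 95% interval -0.33 to 0.29) turned positive when labelled KO array 1 (0.11) or control array 3 (0.091) was left out. Changes up to the ends of these intervals are not excluded by 3 against 3 arrays.

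The list of other VEGF ligands and receptors had 7 measured genes, 3 above 0 and 4 below, with a median log2 difference of -0.093 and none past the threshold. The median was -0.17 over the genes that a filter on dim genes kept. Nrp1, a co-receptor for Vegfa and for semaphorins, was at -0.33 ± 0.13 (SE; limma adjusted p = 0.306). Labelled KO arrays 1 and 2 read 7.99 and 8.02, below the controls at 8.45 to 8.54, while array 3 was at 8.48. Nrp2, the related co-receptor, was at -0.093 and Flt4, the receptor of lymphatic vessels, at -0.10. Of the other ligands, Vegfb was at -0.17, Vegfc at 0.0087, Vegfd at 0.28 and the placental growth factor gene Pgf at 0.10. The differences of Nrp2 and Vegfc changed sign in alternative fits, and the other 3 ligands moved with single arrays. Without labelled KO array 2 Vegfb was at -0.067 and Pgf at 0.19, and without labelled KO array 3 they were at -0.28 and 0.014. Vegfd was at 0.10 without control array 1.

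Genes that respond to VEGF or mark endothelial tip cells were mixed. Of 14 measured, 8 were above 0 and none passed, with a median of 0.049. Over the genes that a filter on dim genes kept, the median was 0.17. Apln, which encodes the peptide apelin of sprouting endothelium, also made by other cells, had the smallest p of the list. It read 7.55, 7.52 and 7.78 in the labelled KO arrays and 8.10, 7.99 and 8.19 in the controls. The groups did not overlap, and the difference was -0.48 ± 0.10 (SE; limma adjusted p = 0.0898), 1.39-fold lower. Apln passed with the array number as a replicate block (limma adjusted p = 0.0483) and with array weights (limma adjusted p = 0.0116). The endothelin receptor gene Ednrb was at 0.19, the Notch target Hey1 at -0.16 and the adhesion protein gene Mcam at 0.17.

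Low oxygen induces Vegfa together with genes of glycolysis and others. Of 25 hypoxia-inducible genes, 11 were above 0 and 14 below, with a median of -0.020 and none past the threshold; without control array 3 the median was 0.031. At an unadjusted p under 0.05, 3 were higher and 4 lower, where 7.01% and 7.39% of all genes were. The members of glycolysis and its control were all below 0: Ldha, Pfkfb3 at -0.34, Pdk1 at -0.24, Pgk1 at -0.22, Aldoa at -0.18 and Hk2 at -0.069, a group formed after the values were seen. In Pfkfb3, Pdk1 and Hk2 the labelled KO and control arrays overlapped. Over all genes, 10504 of 19938 were below 0. Ldha, the lactate dehydrogenase subunit, was at -0.46 ± 0.11 (SE; limma adjusted p = 0.111). P4ha1, which hydroxylates collagen, was at -0.38. Mxi1, a Myc antagonist, was at 0.47 and Ero1a, an oxidase of the endoplasmic reticulum, at 0.37. The 9 hypoxia-inducible factors and regulators had a median of 0.044; Arnt, the common partner subunit, was at 0.31 ± 0.11 (SE; limma adjusted p = 0.232) and Hif1a at 0.18.

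Tek, the angiopoietin receptor that stabilises vessels, read 8.36, 8.40 and 8.60 in the labelled KO arrays and 8.20, 8.51 and 8.43 in the controls. The groups overlapped, and the difference was 0.076 ± 0.11 (SE; 95% interval -0.18 to 0.33; limma adjusted p = 0.812). It was at -0.014 without control array 1. Of the 6 other angiopoietin and TIE genes, 5 were above 0, with a median of 0.10 and none past the threshold. The median was 0.048 without labelled KO array 3 and 0.17 without array 2 of that group. It was -0.082 with a filter on dim genes, which kept only Ptprb and Tie1 of this list. Angpt2, the ligand that counteracts Angpt1 at Tek, read 6.13, 6.21 and 6.53 against 6.00, 6.07 and 5.92, without overlap, a difference of 0.29 ± 0.11 (SE; limma adjusted p = 0.296) that was 0.17 without labelled KO array 3. Ptprb, the endothelial phosphatase that holds Tek inactive, read 8.73, 8.66 and 8.68 against 8.96, 8.99 and 8.79, lower without overlap, a difference of -0.23 ± 0.088 (SE; limma adjusted p = 0.286). Angpt1 was at 0.18, Angpt4 at 0.055, Svep1 at 0.14 and the orphan receptor gene Tie1 at 0.062.

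**Figure D2:**
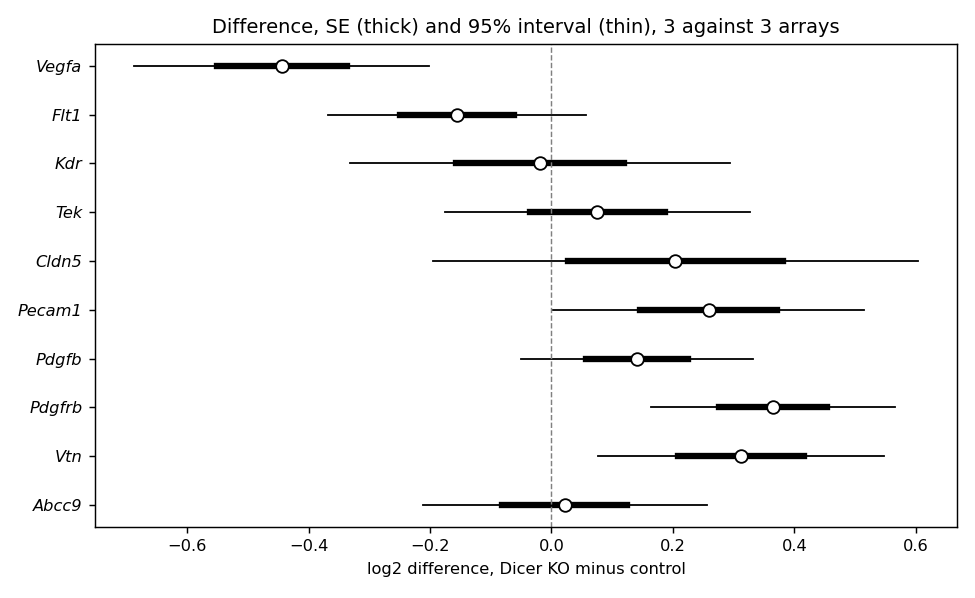
Log2 difference between the 3 labelled Dicer KO and 3 control arrays (horizontal axis) for each of the 10 genes; circles are differences, thick bars the moderated SE and thin bars the 95% interval. The interval of Vegfa (-0.69 to -0.20) lies below 0, those of Pecam1, Pdgfrb and Vtn lie above 0, and 6 of the 10 include 0; none passed over all genes.

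Cldn5 and Pecam1 are structural genes of the endothelium. Cldn5, the tight junction protein that seals the blood-brain barrier, read 9.35, 9.79 and 9.15 in the labelled KO arrays and 9.26, 9.46 and 8.96 in the controls. Its arrays varied most of the 10 genes, with SDs of 0.33 and 0.25, and array 2 of each group was highest. The difference of 0.20 ± 0.18 (SE; 95% interval -0.20 to 0.60; limma adjusted p = 0.664) was 0.023 without labelled KO array 2. Pecam1, an adhesion protein of endothelial junctions that blood cells also carry, read 8.08, 8.27 and 8.41 against 7.87, 8.14 and 7.96. Labelled KO array 1 lay below control array 2, so the groups overlapped. The log2 difference was 0.26 ± 0.11 (SE; 95% interval 0.0030 to 0.51; limma adjusted p = 0.342), and with array weights it was 0.12.

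The wider endothelial lists had medians near 0. Of 28 measured endothelial markers beside the members, 14 were above and 14 below 0, with a median of -0.0013 and none past the threshold. Their mean log2 level lay between -0.043 and 0.030 of the control mean in the labelled KO arrays and between -0.082 and 0.061 in the controls, so the ranges overlapped. Slc38a5, a glutamine transporter, was at -0.43 ± 0.11 (SE; limma adjusted p = 0.129), reading 7.03, 7.05 and 7.29 against 7.67, 7.56 and 7.42. Vwf, the von Willebrand factor gene of larger vessels, was at 0.25 and Emcn, a sialomucin of capillaries and veins, at -0.29, both without overlap between the groups. The nearest arrays of the groups were 0.11 apart for Vwf and only 0.0043 apart for Emcn. The 19 blood-brain barrier junction and transporter genes had a median of 0.00094, with 10 above 0; over the genes that a filter on dim genes kept, the median was 0.14. Slc16a1, the lactate transporter MCT1, which oligodendrocytes also express, was at 0.61 ± 0.18 (SE; limma adjusted p = 0.174), reading 9.81, 10.03 and 10.02 against 9.23, 9.02 and 9.78. The amino acid transporter subunit gene Slc3a2 was at 0.29 and the efflux pump genes Abcc4 and Abcb1a at 0.23 and 0.24.

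**Figure D3:**
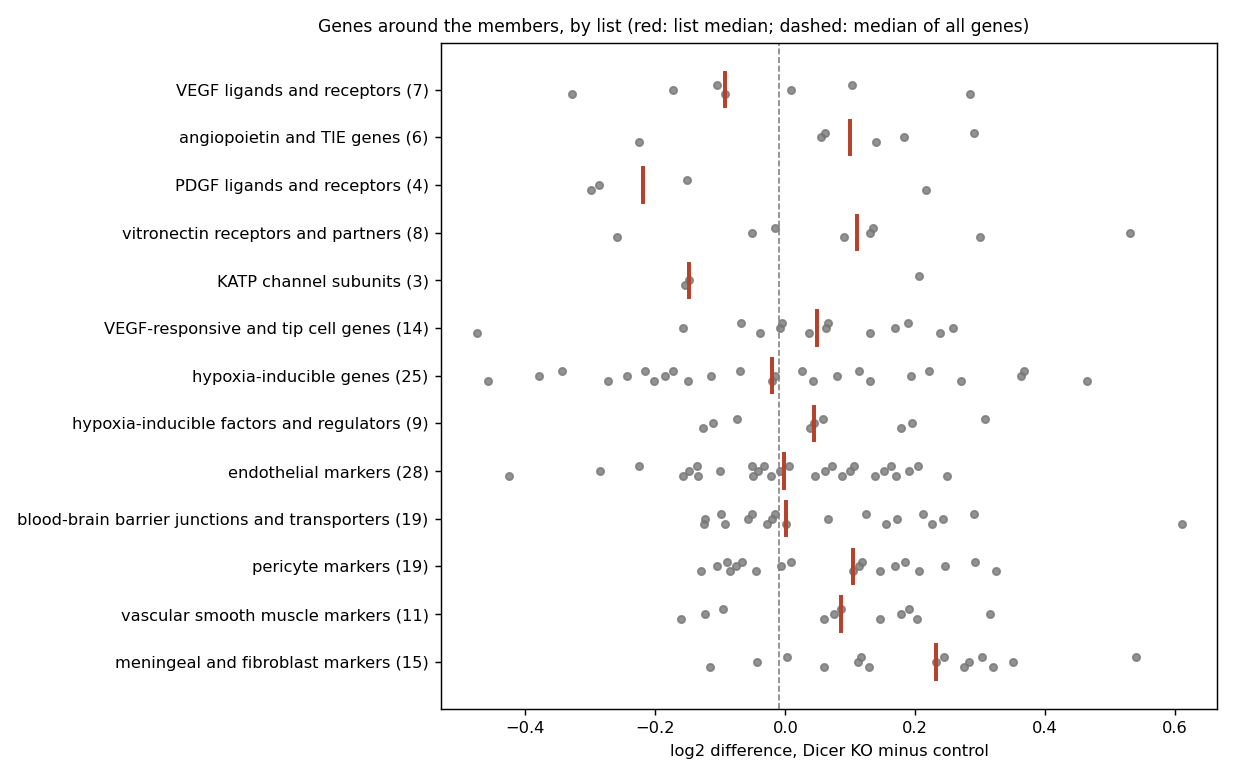
Log2 difference, labelled Dicer KO minus control (horizontal axis), of the genes in 13 lists of vascular and related genes, none of them a member; grey dots are genes, red bars list medians, the dashed line the median of all genes (-0.0092), and measured genes are counted in brackets. Endothelial and barrier lists are centred near 0 (-0.0013 and 0.00094), pericyte and smooth muscle lists lie at 0.10 and 0.085 and the meningeal and fibroblast list at 0.23.

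Pdgfb, which endothelial cells secrete to recruit pericytes and which neurons also express, read 8.61, 8.56 and 8.72 in the labelled KO arrays and 8.50, 8.54 and 8.43 in the controls. The groups did not overlap, but labelled KO array 2 lay only 0.023 above control array 2. The log2 difference was 0.14 ± 0.085 (SE; 95% interval -0.051 to 0.33; limma adjusted p = 0.504).

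Pdgfrb, the receptor for Pdgfb on pericytes, smooth muscle and fibroblasts, had the largest positive difference of the 10 genes. Its log2 values were 9.04, 8.95 and 9.15 in the arrays labelled Dicer KO and 8.62, 8.72 and 8.71 in the controls. Every labelled KO array lay above every control, and the nearest arrays were 0.23 apart. The means were 9.05 ± 0.10 and 8.68 ± 0.056 (SD, n = 3 each), a difference of 0.36 ± 0.088 (SE; 95% interval 0.16 to 0.57), 1.29-fold higher, which did not pass over all genes (limma adjusted p = 0.120). Leaving out labelled KO array 3 gave 0.31 and leaving out control array 1 gave 0.33, with adjusted p between 0.150 and 0.327 when any single array was left out. With array weights it was 0.36 and passed (limma adjusted p = 0.0219).

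Of the 4 other PDGF genes, 1 was above 0 and 3 below, with a median of -0.22. The median was -0.29 over the genes that a filter on dim genes kept and -0.16 without control array 3. Pdgfa, the ligand that supports oligodendrocyte precursors, read 8.67, 8.72 and 8.60 against 8.90, 8.88 and 9.08, lower without overlap, with a difference of -0.29 ± 0.091 (SE; limma adjusted p = 0.203). Its receptor gene Pdgfra, a marker of those precursors and of fibroblasts, was at -0.30 ± 0.15 (SE), Pdgfc at -0.15 and Pdgfd at 0.22. None passed the threshold. Pdgfra was at -0.16 without control array 3 and -0.46 without control array 1. Pdgfd was at 0.036 without labelled KO array 3, 0.38 without array 2 of that group and 0.040 without control array 3. Of 8 oligodendrocyte precursor markers, Pdgfra among them, 7 were below 0, and their mean log2 level lay between -0.26 and -0.14 of the control mean in the labelled KO arrays and between -0.033 and 0.064 in the controls. The part of these levels in the Pdgfa and Pdgfra differences was not tested.

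Vtn, the adhesive matrix protein vitronectin, which pericytes express in the brain, was also higher without overlap. It read 10.49, 10.49 and 10.78 in the labelled KO arrays and 10.28, 10.21 and 10.34 in the controls. Labelled KO array 3 stood above the other 2 of its group. The log2 difference was 0.31 ± 0.10 (SE; 95% interval 0.076 to 0.55), 1.24-fold higher, and did not pass (limma adjusted p = 0.222). Leaving out labelled KO array 3 gave 0.21, and leaving out control array 1 gave 0.31. The 250 bases before the start of Vtn are shown beside those of Vegfa because Vtn read higher. Pdgfrb had a larger positive difference, but its window was left out, as given above. The Vtn bases are at chr11:78498870-78499119 (GRCm38.p6, plus strand, RefSeq) and have no GGGCGG, so no letters are in capitals.
Vtn promoter: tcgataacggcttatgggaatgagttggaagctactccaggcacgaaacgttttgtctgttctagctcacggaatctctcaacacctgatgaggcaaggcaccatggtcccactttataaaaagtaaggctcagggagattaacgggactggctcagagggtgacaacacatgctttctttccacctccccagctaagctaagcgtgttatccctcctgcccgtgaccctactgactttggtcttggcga
Bases G and C make up 50.4% of it and 59.2% of the Vegfa window, where the median over all windows is 52.4%. Of its receptors and partners, 8 of 9 listed genes were measured, 5 of them above 0, with a median of 0.11 and none past the threshold. The direction of that median rested on labelled KO array 3: it was -0.081 without it. It was 0.18 without labelled KO array 1, 0.045 without control array 1 and -0.0022 with array weights. Itgb1, an integrin subunit of most cell types, read 9.997, 9.99 and 10.28 against 9.45, 9.65 and 9.57, a difference of 0.53 ± 0.11 (SE; limma adjusted p = 0.0814), and Itgb3, a subunit of the classical vitronectin receptor, was at 0.30 ± 0.097 (SE; limma adjusted p = 0.213), both without overlap. Their partner subunit gene Itgav was at -0.26, and Itgb5, Itgb6 and Itgb8 were at 0.13, -0.051 and -0.016. The plasminogen activator gene Plau and its receptor gene Plaur were at 0.091 and 0.13.

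Abcc9, the sulfonylurea receptor subunit of the potassium channel of pericytes and smooth muscle, read 7.59, 7.46 and 7.74 in the labelled KO arrays and 7.57, 7.46 and 7.69 in the controls. Array by array the groups covered the same range, and the difference was 0.022 ± 0.10 (SE; 95% interval -0.21 to 0.26; limma adjusted p = 0.952). It was -0.0049 with median centring. Kcnj8, the pore subunit that pairs with Abcc9, was at 0.21 ± 0.095 (SE; limma adjusted p = 0.373) without overlap, reading 7.25, 7.26 and 7.25 against 6.95, 6.97 and 7.22. Abcc8 and Kcnj11, the subunits of neurons, were at -0.15 each. Pdgfrb, Vtn and Abcc9 thus had differences of 0.36, 0.31 and 0.022, and the differences between these genes were not tested.

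Further mural markers went both ways. Of 19 pericyte markers, 11 were above 0 and 8 below, with a median of 0.10 and none past the threshold. That median rested on single arrays: it was 0.023 without labelled KO array 3, 0.039 without control array 3, 0.064 without labelled KO array 2 and -0.0087 with array weights. At an unadjusted p under 0.05, 2 of the 19 were higher, where 7.01% of all genes were. These were Atp13a5, a transporter gene of brain pericytes, at 0.29 ± 0.090 (SE; limma adjusted p = 0.196) and the receptor gene P2ry14 at 0.32 ± 0.10 (SE; limma adjusted p = 0.206). Below 0 were, among others, the capillary pericyte genes Rgs5 at -0.10 and Higd1b at -0.13 and the proteoglycan gene Cspg4 at -0.089, 3 genes chosen after their values were seen. The list's mean log2 level lay between 0.0073 and 0.15 of the control mean in the labelled KO arrays and between -0.044 and 0.056 in the controls, which overlap. Of 11 smooth muscle markers 8 were above 0, with a median of 0.085. It was 0.031 without labelled KO array 1, 0.17 without array 2, 0.056 without array 3 and 0.054 without control array 3. Over the genes that a filter on dim genes kept, the median was 0.19. Among the 11 markers Pln, the calcium pump regulator phospholamban, was at 0.31, Mustn1 at 0.19, Myh11, the smooth muscle myosin, at 0.15 and Des at -0.16.

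Fibroblasts of the meninges and vessel walls also express Pdgfrb. Of 15 meningeal and fibroblast markers, 13 were above 0, with a median of 0.23 and none past the threshold. The median was 0.12 without labelled KO array 3, 0.12 without control array 1 and 0.11 with sex as a covariate. Their mean log2 levels in labelled KO arrays 1 to 3 were 0.25, 0.0047 and 0.30 above the control mean, and the controls lay between -0.078 and 0.073. Fmod, the collagen-binding proteoglycan fibromodulin, was at 0.54 ± 0.10 (SE; limma adjusted p = 0.0780) and passed with a filter on dim genes (limma adjusted p = 0.0451) and with array weights (limma adjusted p = 0.00912). Dcn was at 0.35, or 0.17 without control array 1, Col1a2 at 0.32 and the transporter gene Slc6a13 at 0.28. The part of these cells in the Pdgfrb and Vtn differences was not tested.

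**Figure D4:**
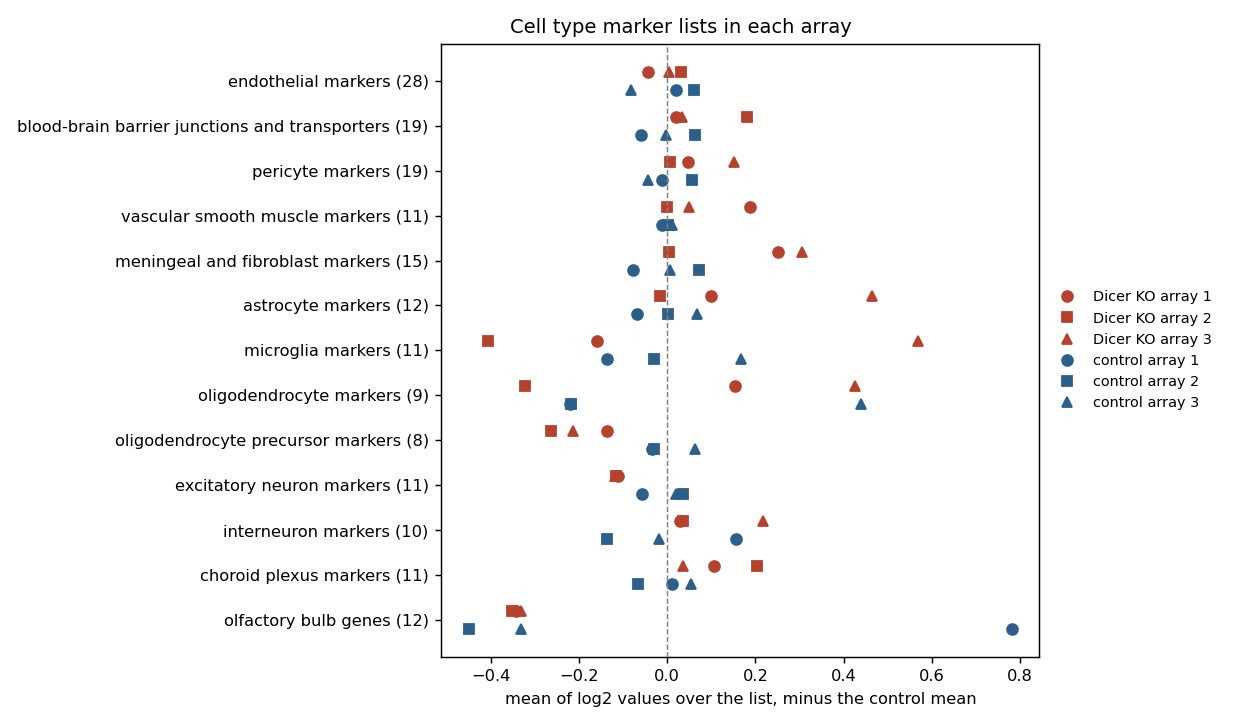
Mean log2 value of each cell type marker list in every array, minus the mean of the 3 controls (horizontal axis); red points are labelled Dicer KO and blue points control arrays, with shapes for array numbers and measured genes in brackets. Endothelial markers overlap between the groups, meningeal and fibroblast markers are at 0.25, 0.0047 and 0.30 in labelled KO arrays 1, 2 and 3, and control array 1 stands apart in olfactory bulb genes at 0.78.

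Astrocytes, whose end feet cover brain vessels and which express Vegfa, had 8 of 12 markers above 0, with a median of 0.076 and none past the threshold. Their mean levels in labelled KO arrays 1 to 3 were 0.098, -0.017 and 0.46 above the control mean. Of the 12, 4 were higher and none lower at an unadjusted p under 0.05, where 7.01% and 7.39% of all genes were. The gap junction genes Gjb6 and Gja1 had the smallest p of the list. They were at 0.48 ± 0.13 (SE; limma adjusted p = 0.141) and 0.44 ± 0.12 (SE; limma adjusted p = 0.147), without overlap. With 1 array left out, Gjb6 lay between 0.35 and 0.56 and Gja1 between 0.33 and 0.54. Gfap, the filament protein of reactive astrocytes, was at 1.07 ± 0.33 (SE; limma adjusted p = 0.196), reading 9.10, 8.92 and 10.44 against 8.34, 8.35 and 8.55. Leaving out labelled KO array 3 gave 0.60 for Gfap and 0.039 for the list's median. Vegfa was lowest, at 8.51, and Pdgfrb, Vtn and Pecam1 were highest in labelled KO array 3, the array with the highest astrocyte level. Over the 10 genes labelled KO array 3 was the highest of its group in 7, array 1 in 2 and array 2 in 1. The part of the astrocyte level in these values was not tested.

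With 1 array left out at a time, Vegfa stayed between -0.50 and -0.35, Flt1 between -0.22 and -0.089, Pdgfb between 0.098 and 0.17, Pecam1 between 0.18 and 0.34, Pdgfrb between 0.31 and 0.41 and Vtn between 0.21 and 0.36. None of the 10 passed over all genes in any of these 6 fits. Kdr, Tek and Abcc9 changed sign.

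**Figure D5:**
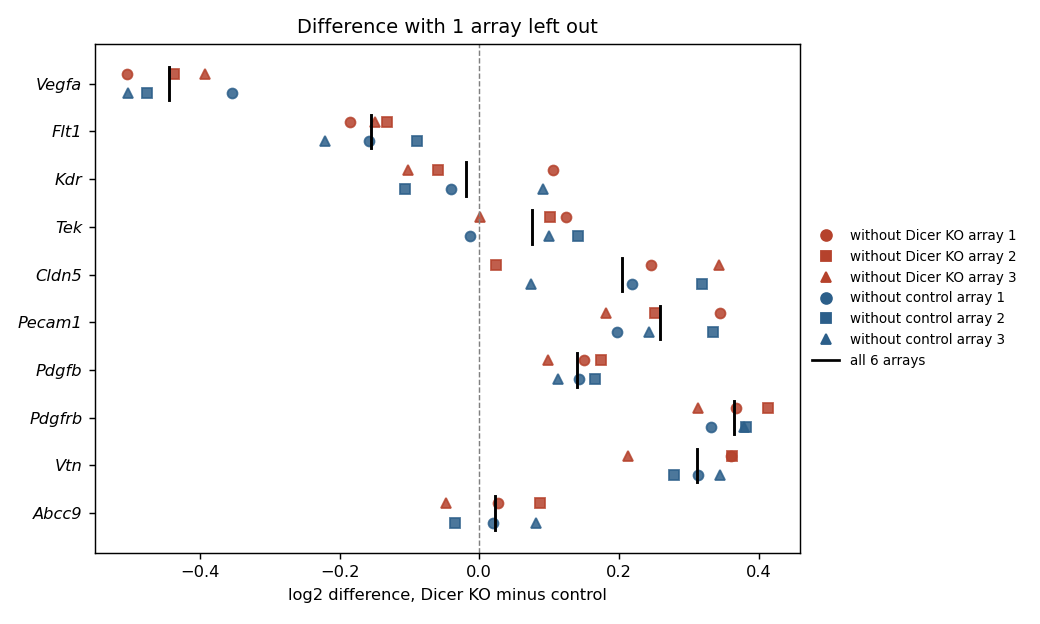
Log2 difference, labelled Dicer KO minus control (horizontal axis), of the 10 genes with 1 array left out; red points leave out a labelled Dicer KO array, blue points a control array, and black bars use all 6. Vegfa and Flt1 stay below 0, Cldn5, Pecam1, Pdgfb, Pdgfrb and Vtn stay above 0, and Kdr, Tek and Abcc9 have points on both sides.

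The genes whose values followed Vegfa most closely over the 6 arrays were Nkx6-3 (Pearson r = 0.9983), Hspb3 (r = 0.9977), Wt1os (r = 0.9972), Klhl30 (r = 0.9964) and Me3 (r = 0.9961). They are the highest of 18316 genes compared, so high values of r follow in part from the search. After the group means were subtracted, r was between 0.981 and 0.998 in the same arrays. In all 5 genes, as in Vegfa, control array 1 was highest and labelled KO array 3 lowest. Both follow from the choice of genes by r in these arrays and add no further agreement. In Nkx6-3, Hspb3, Wt1os and Klhl30 both group means lay below 7.65, the median of all gene means. Me3, a mitochondrial malic enzyme, read 9.28, 9.10 and 9.03 in the labelled KO arrays and 9.71, 9.52 and 9.44 in the controls, a log2 difference of -0.42 ± 0.11 (SE; limma adjusted p = 0.130).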

How the data were processed

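The deposited table holds 1 log2 value per probe set and array for 6 arrays and 35557 rows. RMA and limma are named, without versions, in the submitters' processing notes. RMA combines the probes of a set after quantile normalization, and dim transcripts read compressed differences. No detection call was used. Rows with a single gene symbol in the platform's annotation (21789) were renamed through gene identifiers of assembly GRCm38.p6 where possible, and a gene with more than 1 probe set took the brightest on average, which left 19938 genes. No 2 arrays held the same values. Differences were tested two-sided over all genes with limma 3.58.1 (R 4.3.3), where lmFit took the group alone and eBayes gave 4.89 prior degrees of freedom; p-values were adjusted by Benjamini-Hochberg at a threshold of 0.05; the script was tested on simulated data. The number of arrays limits precision. Means of a list are means of log2 values relative to the control mean. The members and the 22 gene lists were chosen with earlier results of these data known. Named were all members and all genes of the VEGF, angiopoietin, PDGF, vitronectin and KATP lists. Also named were up to 4 genes of smallest p in other lists and the 5 genes most like Vegfa. The glycolysis genes besides Ldha, and Rgs5, Higd1b and Cspg4 of the pericyte list, were added after their values were seen. MicroRNAs, promoters and motifs were chosen after the values were seen. Alternatives were a block for the array number, leaving out each array, median centring, a second quantile normalization, a filter on dim genes, the mean of probe sets, every row tested, a trended and robust prior, array weights, and the sex of the animal read from a Y-linked transcript. Of 263 listed genes 250 were analysed here.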

Additional observations from a re-analysis of the deposited data

How the results depend on the processing

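Over 15 alternatives, 7 of the 10 vascular genes kept their direction in all, Kdr, Tek and Abcc9 being the exceptions, and none passed the threshold except with array weights, where 2 did: Vegfa at -0.3702 (limma adjusted p = 0.0441) and Pdgfrb at 0.3593 (limma adjusted p = 0.0219). Over all alternatives the adjusted p was between 0.0441 and 0.319 for Vegfa and between 0.0219 and 0.327 for Pdgfrb. Kdr was at 0.0454 with sex as a covariate and between -0.1069 and 0.1053 with 1 array left out. Abcc9 was at -0.0049 with median centring, -0.0054 after a second quantile normalization and between -0.0483 and 0.0877 with 1 array left out; the filter on dim genes left it out. Tek lay between -0.0136 and 0.1409 with 1 array left out. The median of the 10 genes lay between 0.0493 (KO array 3 left out) and 0.1536 (control array 2 left out). The number of genes called over all genes, 56, was 215 with the replicate block, 178 with the filter on dim genes, 1116 with array weights, 0 with every row tested (3725 at an unadjusted p under 0.05), 0 with sex as a covariate (2292) and between 0 and 129 with 1 array left out, 129 being without labelled KO array 3. The cause was not tested. The replicate block changed no call among the 10 genes. Same-numbered arrays correlated in their deviations from the group means at 0.0895, 0.166 and 0.294, and each labelled KO array correlated best with the control of its own number, a hint from the data and not the design. Among other named genes, Nrp1, Itgb1, Itgb3, Apln, Ldha, Mxi1, P4ha1, Slc38a5, Emcn, Slc16a1, Atp13a5, Pln, Fmod and Gja1 passed with array weights. Vegfc was at -0.0182 with median centring and -0.0123 after a second quantile normalization, and Plau at -0.1128 with array weights. With 1 array left out, Vegfc lay between -0.0856 and 0.1065, Nrp2 between -0.185 and 0.0131, Angpt1 between -0.0116 and 0.3172, Angpt4 between -0.0573 and 0.1575, Itgb5 between -0.0812 and 0.2706, Itgb6 between -0.1005 and 0.0082, Itgb8 between -0.1602 and 0.1033 and Plau between -0.0941 and 0.2478. Signal over background is unknown, so dim transcripts such as Mir126a have no detection limit here.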
